A study of Mus musculus with 72 samples.

Results

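The liver makes bile acids from cholesterol, secretes them into bile and takes most of them back from portal blood. A set of 10 genes that sense or carry bile acids was followed in mouse liver, chosen by symbol among the 55573 genes of a count table (10 of 55573). The sensing genes were Nr1h4, Nr0b2, Fgfr4 and Klb, and the transport genes were Slc10a1, Slco1a1, Slco1b2, Abcb11, Abcb4 and Slc51b. RNA-Seq was performed on livers of male C57BL/6 mice (C57BL/6J in the study's methods) collected every 4 hours over a light/dark cycle, at zeitgeber times (ZT, hours after lights on) ZT2, ZT6, ZT10, ZT14, ZT18 and ZT22. All mice, controls included, carried 2 loxP-flanked copies of Bmal1 (Bmal1 fl/fl), a gene whose product drives the circadian clock. WT mice were Bmal1 fl/fl without Cre, and LKO mice were Bmal1 fl/fl with Albumin-Cre, whose albumin promoter is active in hepatocytes, so that LKO mice differed from WT mice by the transgene as well as by the deletion. Adults of either genotype lived with a microbiota (specific pathogen free, SPF) or in isolators without one (germ free, GF). The resulting groups, SPF WT and SPF LKO with microbes and GF WT and GF LKO without, had 18 mice each, 3 at each ZT.

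In hepatocytes bile acids bind the nuclear receptor FXR, which induces the repressor SHP and the export pumps and thereby limits bile acid synthesis and hepatic bile acid load. Bile acids reaching the ileum induce the hormone FGF15, which acts on hepatocytes through FGFR4 and its coreceptor β-Klotho and also represses synthesis. Gut microbes deconjugate and dehydroxylate bile acids, and many genes of this pathway are known to follow the daily feeding and clock cycle.

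Nr1h4 encodes FXR and lies at chr10:89454234-89533585 of GRCm38. Nr0b2 encodes SHP and lies at chr4:133553376-133556536. Fgfr4 encodes the FGF15 receptor and lies at chr13:55152640-55168759. Klb encodes β-Klotho and lies at chr5:65348314-65384007. Of the transporters, Slc10a1 at chr12:80953183-80968705 encodes NTCP, the sodium-dependent carrier that takes up conjugated bile acids from blood. Slco1a1 at chr6:141907282-141946962 and Slco1b2 at chr6:141629518-141686646 encode sodium-independent uptake carriers of the organic anion transporter family. Abcb11 at chr2:69238282-69342616 encodes BSEP, the pump that exports bile salts into bile. Abcb4 at chr5:8893717-8959231 encodes the phospholipid floppase MDR2 of the same membrane, whose product protects the bile ducts from bile salts. Slc51b at chr9:65412714-65422955 encodes a subunit of the heterodimer that exports bile acids back into blood. All coordinates cover the whole gene with its exons and introns, and counts are sums over exons.

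Each library held between 17369927 and 22076113 counts (median 19106726), and values are given as CPM (counts scaled to a common library size, with TMM factors over all 72 libraries). A change was called where the quasi-likelihood test of edgeR gave a p under 0.05 after Benjamini-Hochberg adjustment across every gene tested. Of the 10 genes, 9 passed the filter on low counts in the comparisons with all ZT pooled, and Slc51b did not. Labels do not say more of the replicates than that each is a sample of its own, so p-values measure the spread between these samples. With ZT pooled, that spread includes the differences between ZT. The count per gene does not separate the deleted part of Bmal1 from the rest, so its level does not measure the deletion. Npas2, which belongs to the clock and was called higher in both LKO groups, was low in 2 SPF LKO libraries. The sample labelled SPF LKO ZT14 replicate 2 had 0.221 CPM of it, with 25.2 and 24.03 CPM in its companions, and the sample labelled SPF LKO ZT18 replicate 1 had 1.83 CPM, with 36.4 and 27.6 CPM in its companions. Bmal1 itself (symbol Arntl) had 29.3 CPM in SPF LKO ZT18 replicate 1, with 11.4 and 11.9 CPM in its companions. In SPF LKO ZT14 replicate 2 it had 13.1 CPM, with 12.4 and 10.4 CPM in its companions. WT livers at ZT14 had 15.8, 19.3 and 2.11 CPM of Bmal1 with microbes and 9.61, 11.02 and 10.6 CPM without. Its level at ZT14 thus does not tell the genotypes apart. Nr1d1, another clock gene, reached 84.8 CPM in SPF WT ZT14 replicate 3 against 8.55 and 3.07 CPM in its companions, and was down at 9.39 CPM in GF WT ZT6 replicate 3 against 51.1 and 49.1 CPM. These 4 libraries were kept, and where a call of a member changed without them the change is stated.

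The 10 genes spanned a wide range of levels when compared per kilobase of exon. The group medians of CPM per kilobase were 316 to 389 for Slco1b2, 279 to 384 for Slc10a1, 134 to 193 for Slco1a1 and 125 to 163 for Abcb11. Nr1h4 followed with medians of 48.3 to 58.7, Abcb4 with 23.2 to 28.02 and Nr0b2 with 16.5 to 26.05. Klb (5.22 to 7.92) and Fgfr4 (6.14 to 7.77) were the lowest of the genes tested. Over all 72 libraries, neighbours in this order overlapped in level, with the exception of Slc51b, which lay below every other member in CPM per kilobase. The uptake carriers and the bile salt pump were thus the most abundant transcripts of the set, and the FGF15 receptor and its coreceptor were present at similar low levels. Slc51b had 0 to 24 counts per library and at most 1.13 CPM, and its partner subunit Slc51a had 0 to 8 counts, so changes of either were not detectable at this depth. In all, 91 of 709 exon bases of Slc51b are shared with Rasl12 on the other strand and 136 exon bases of Abcb11 with an antisense gene that had 264 counts over all libraries, and the counting did not use strand. The other 8 genes share no exon bases with another gene.

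The region just before the transcription start is where clock and nuclear receptor proteins can bind, so the 250 bases before each start were searched on both strands for fixed letters. RefSeq promoters were found for all 10 genes, with 11 starts since Slc10a1 has 2, and the share of all 32851 mouse promoters of that length with the same letters is the background. The core AGGTCA that many nuclear receptors bind was in 6 of 11 (14.0% of all promoters), namely those of Nr1h4, Abcb11, Slco1a1, Slco1b2, Slc51b and the second start of Slc10a1. Its longer form AAGGTCA, which contains it and is read by receptors that bind as monomers, was in that of Slco1a1 alone (4.08%). CACGTG, the E-box that BMAL1 with CLOCK binds, was in that of Nr0b2 alone (6.02%). The D-box letters TTATGTAA or TTACGTAA (0.931%) and the inverted repeat AGGTCANTGACCT (0.00609%), with N for any base, were in none of the 11. Only exact matches were counted, so a site with a changed base was missed, and absence of the letters does not show absence of a site. Of the genes whose levels differed between genotypes or microbial states, Klb, Fgfr4 and Abcb4 had none of these letters, nor had the first start of Slc10a1. The 4 sequences below were picked from those of such genes that had them. They run 5′ to 3′ on the strand of the gene (build GRCm38.p6), with the letters found in capitals, at -195 to -190 for Nr0b2, -56 to -51 for Abcb11, -134 to -129 and -25 to -19 for Slco1a1, and -87 to -82 for Slc10a1, counted from the start. TGACCT is AGGTCA read on the other strand.
Nr0b2 (chr4:133553126-133553375, plus strand): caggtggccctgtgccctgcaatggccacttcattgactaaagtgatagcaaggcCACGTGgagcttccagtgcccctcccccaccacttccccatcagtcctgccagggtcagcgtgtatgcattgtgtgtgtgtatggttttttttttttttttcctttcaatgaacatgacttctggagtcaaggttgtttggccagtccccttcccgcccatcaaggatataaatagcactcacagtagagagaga
Abcb11 (chr2:69342617-69342866, minus strand): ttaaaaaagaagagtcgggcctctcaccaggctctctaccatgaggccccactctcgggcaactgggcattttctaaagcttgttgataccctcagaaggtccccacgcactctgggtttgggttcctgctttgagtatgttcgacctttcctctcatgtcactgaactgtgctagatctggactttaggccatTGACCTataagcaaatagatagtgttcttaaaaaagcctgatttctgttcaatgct
Slco1a1 (chr6:141946963-141947212, minus strand): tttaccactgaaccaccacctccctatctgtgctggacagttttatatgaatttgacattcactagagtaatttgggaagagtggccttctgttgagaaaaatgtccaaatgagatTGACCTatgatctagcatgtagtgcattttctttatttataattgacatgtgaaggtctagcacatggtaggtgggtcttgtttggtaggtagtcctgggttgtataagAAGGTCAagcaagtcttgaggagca
Slc10a1, second start (chr12:80968080-80968329, minus strand): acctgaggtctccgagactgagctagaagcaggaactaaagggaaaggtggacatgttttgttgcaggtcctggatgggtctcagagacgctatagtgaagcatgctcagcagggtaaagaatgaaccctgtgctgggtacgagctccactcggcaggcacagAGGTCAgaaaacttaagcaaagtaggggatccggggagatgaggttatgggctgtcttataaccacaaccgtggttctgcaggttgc

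The first comparison asked how livers of GF mice differed from those of SPF mice. The uptake carriers Slc10a1 and Slco1a1 were higher without microbes in either genotype, Abcb4 was lower in WT mice, and the bile salt pump Abcb11 passed the test in neither genotype. In WT mice 3 of the 9 genes tested were called, 2 higher and 1 lower (31.8% of all 12776 genes tested were called, 14.2% higher and 17.7% lower), with a median log2 fold change of 0.11 against -0.02 over all genes. In LKO mice 4 of 9 were called, 3 higher and 1 lower (36.4% of 13010, 18.1% higher and 18.4% lower), with a median of 0.09 against -0.02. At single ZT, from ZT2 to ZT22, 10.1%, 2.62%, 2.89%, 0.0751%, 0.983% and 0.516% of genes were called in WT mice, with 3 member calls in all. In LKO mice the shares were 8.92%, 0.309%, 0.982%, 0.0601%, 3.71% and 2.25%, with 2 member calls.

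Slc10a1 ranged from 479 through a median of 650.1 to 728 CPM in SPF WT livers and from 669 through 845 to 958 CPM in GF WT livers. In LKO mice it ran from 535 through 613 to 687 CPM with microbes and from 662 through 757 to 997 CPM without. At each ZT taken alone, all 3 GF livers lay above all 3 SPF livers, in WT as in LKO mice, which held at all 6 ZT for 0.299% and 0.756% of the 10710 genes whose mean log2 CPM reached 1. With ZT pooled the log2 fold change was 0.36 (SE 0.055, 1.28-fold, adjusted p = 6.11e-06) in WT and 0.33 (SE 0.047, 1.26-fold, adjusted p = 1.77e-06) in LKO mice. Slc10a1 was the member with the smallest adjusted p in both. The test of single ZT, with 3 livers a group, called it at none of the 6 ZT (6 had an unadjusted p under 0.05 in WT and 5 in LKO mice). With the GF WT ZT6 library in doubt left out, the ZT6 difference in WT mice was called (log2 fold change 0.47, SE 0.11, adjusted p = 0.04005), and in the fits of all libraries DESeq2 called it at 5 ZT in WT and at 3 in LKO mice.

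Slco1a1 ranged from 636 through 872 to 1168 CPM in SPF WT and from 860.5 through 1018 to 1444 CPM in GF WT livers. In LKO mice it ran from 562 through 705 to 925 CPM with microbes and from 560.5 through 879 to 1114 CPM without, and the groups overlapped in both genotypes. The log2 fold change was 0.28 (SE 0.077, adjusted p = 0.00608) in WT and 0.31 (SE 0.072, adjusted p = 0.00107) in LKO mice, and the former call was lost without replicate 2 of every ZT (0.25, adjusted p = 0.0623). The mean was higher in GF mice at 5 of 6 ZT in each genotype and lower at ZT18, with ratios of means of 0.970 in WT and 0.965 in LKO mice, and the ratio was largest at ZT6. There SPF WT livers had 750.3, 745 and 766 CPM and GF WT livers 1054, 1268 and 1163 CPM. SPF LKO livers had 575, 691 and 624 CPM there and GF LKO livers 999, 969 and 1058 CPM. Neither pair overlapped at ZT6, with log2 fold changes of 0.62 (SE 0.11, adjusted p = 0.0342, 2.62% of genes called) and 0.68 (SE 0.11, adjusted p = 0.0356, 0.309% called). With the library labelled GF WT ZT6 replicate 3 left out, the former was 0.62 (adjusted p = 0.0234).

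Its neighbour on chromosome 6, Slco1b2, ranged from 1452 through 1753 to 2511 CPM in SPF WT and from 1473 through 1919 to 2590 CPM in GF WT livers, and did not pass the test (log2 fold change 0.14, SE 0.076, adjusted p = 0.160). In LKO mice it rose by 0.19 (SE 0.077, adjusted p = 0.0482), a call that was lost under 7 of 11 alternatives with adjusted p up to 0.289, among them without the doubted libraries (0.18, adjusted p = 0.0707). Beside these carriers 4 of 5 hepatocyte markers rose in GF WT mice (Cps1, Alb, Apoa1 and Ttr), with a summed level of 77756 to 128056 CPM in SPF WT and 109832 to 164306 CPM in GF WT livers. In LKO mice 2 of 5 (Cps1 and Apoa1) rose and Alb fell, and without the doubted libraries Ttr rose too and the call of Alb was lost (adjusted p = 0.317). The part of the markers in the rise of Slc10a1 and Slco1a1 was not tested. In tissue RNA, fewer cells of a type and less RNA per cell cannot be told apart.

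**Figure D1:**
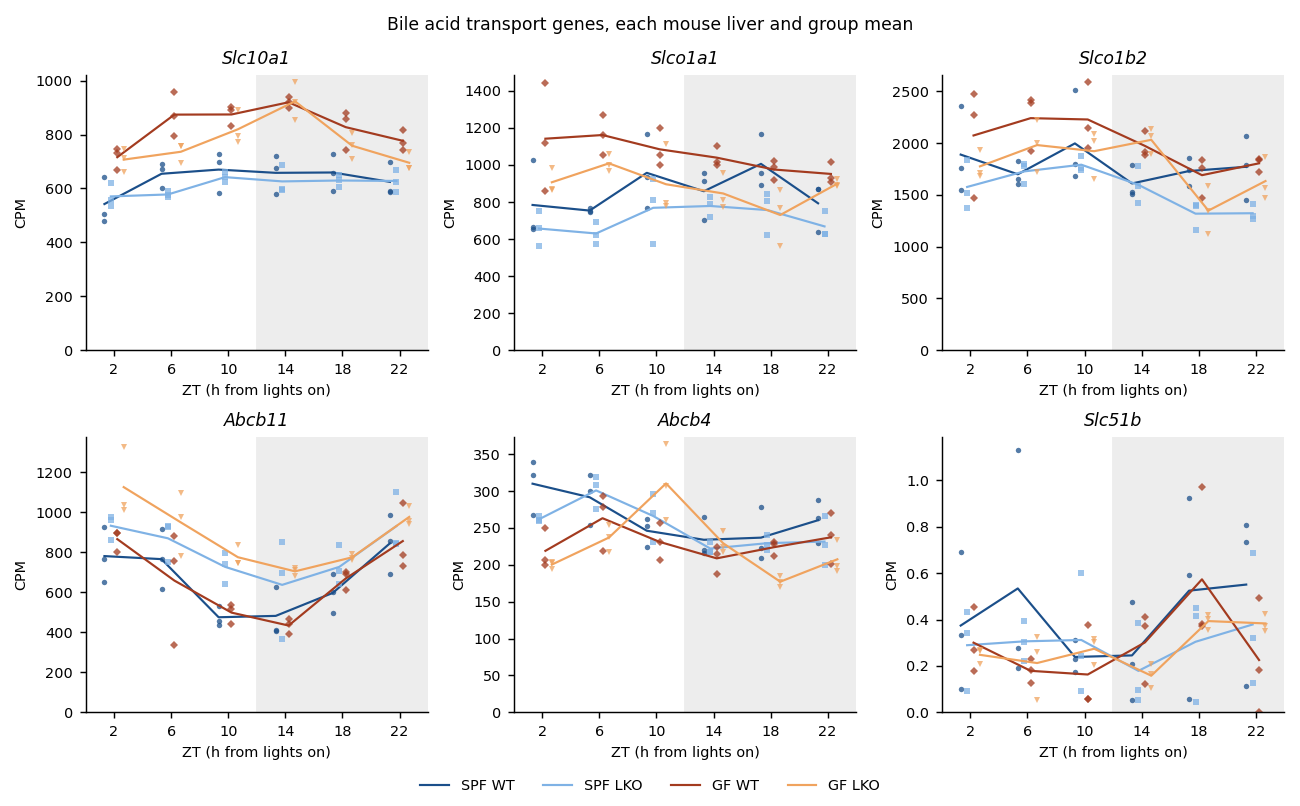
CPM of the 6 transport genes (vertical axes, from 0) against ZT (horizontal axes, hours from lights on), with a point for each liver and a line through the mean of 3 livers for each of the 4 groups, points set slightly apart and the dark phase in grey. Slc10a1 points of GF mice lie above those of SPF mice of the same genotype at all 6 ZT, Abcb11 lines dip at ZT10 and ZT14, and Slc51b stays at or below 1.13 CPM.

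Among the export genes, Abcb4 was lower in GF mice. It ranged from 209 through 263 to 340.0 CPM in SPF WT and from 188 through 226 to 293 CPM in GF WT livers, a fall of 0.22 on the log2 scale (SE 0.065, adjusted p = 0.00911) that was the same in sign at 6 of 6 ZT. The call was lost without replicate 2 of every ZT and with no filter on low counts (adjusted p = 0.239 and 0.0545). In LKO mice it ran from 200.3 through 249.8 to 319 CPM with microbes and from 170.0 through 217 to 364 CPM without (log2 fold change -0.16, SE 0.079, adjusted p = 0.119). The difference passed the test at ZT2 in both genotypes. There SPF WT livers had 322, 268 and 340.0 CPM and GF WT livers 199.9, 207 and 250.3 CPM, without overlap (log2 fold change -0.53, SE 0.11, adjusted p = 0.0136, 10.1% of genes called). SPF LKO livers had 260.2, 259 and 266 CPM and GF LKO livers 204, 202 and 195 CPM (log2 fold change -0.39, SE 0.11, adjusted p = 0.0469, 8.92% called). Abcb11 ranged from 406 through 641 to 989.5 CPM in SPF WT and from 337 through 699 to 1048 CPM in GF WT livers, with a log2 fold change of -0.02 (SE 0.14) whose sign turned without the doubted libraries (0.02). In LKO mice its log2 fold change was 0.13 (SE 0.096, adjusted p = 0.287).

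Of the sensing genes, Fgfr4 was the only member called with ZT pooled, and only in LKO mice. It ranged from 22.3 through 27.5 to 35.1 CPM in SPF LKO and from 16.1 through 24.2 to 31.9 CPM in GF LKO livers, a fall of 0.19 on the log2 scale (SE 0.075, adjusted p = 0.0440). Leaving out replicate 2 of every ZT took it to -0.13 (adjusted p = 0.342), and leaving out replicate 3 or the filter on low counts also lost the call (adjusted p = 0.119 and 0.0958). In WT mice the difference passed the test at ZT6, where SPF WT livers had 25.2, 28.7 and 27.1 CPM and GF WT livers 17.1, 17.2 and 16.3 CPM (log2 fold change -0.68, SE 0.13, adjusted p = 0.0342). The 3 GF livers were tightly grouped, and with the library labelled GF WT ZT6 replicate 3 left out, the value was -0.66 (adjusted p = 0.0321). Klb, its coreceptor, had log2 fold changes of 0.16 (SE 0.090) in WT and 0.09 (SE 0.068) in LKO mice and passed neither test. Nr0b2 was lower in GF mice by 0.30 (SE 0.27, adjusted p = 0.399) and 0.35 (SE 0.24, adjusted p = 0.268) log2 units, within its spread between livers of all ZT. That spread includes its change over the day, and its mean was lower in GF mice at 5 of 6 ZT in each genotype and higher at 1. Nr1h4, the receptor itself, ranged from 85.3 through 111 to 174 CPM in SPF WT and from 89.7 through 135 to 207 CPM in GF WT livers (log2 fold change 0.11, SE 0.097, adjusted p = 0.377).

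**Figure D2:**
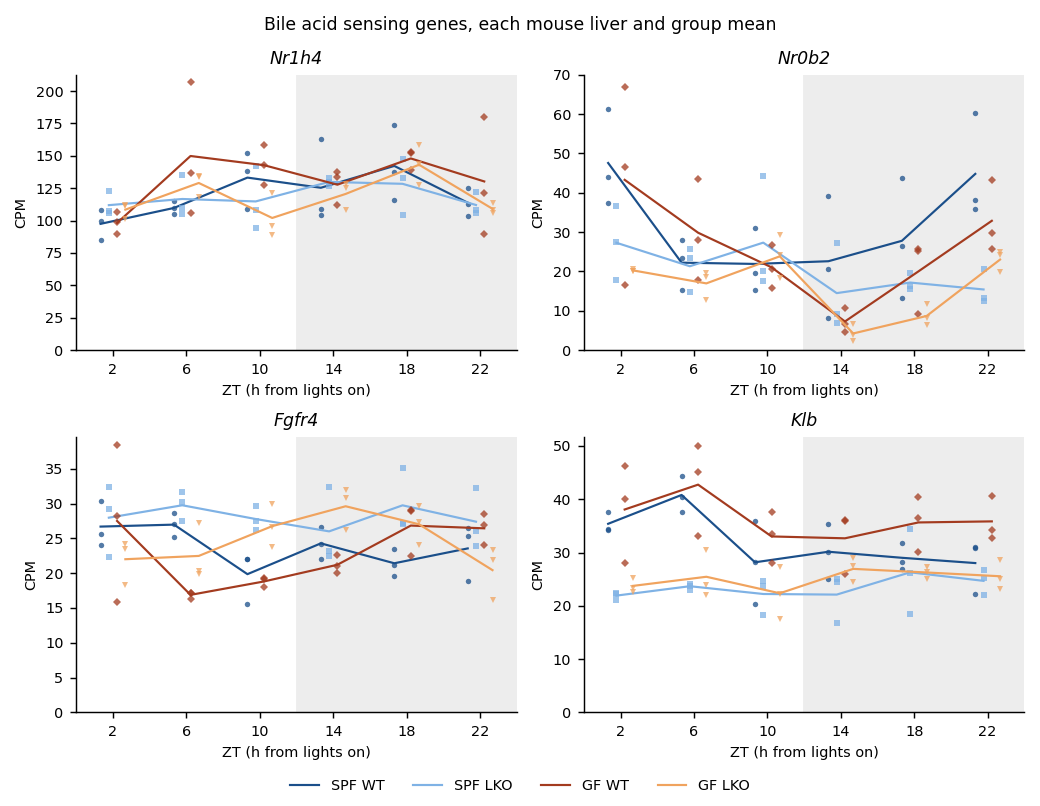
CPM of the 4 sensing genes (vertical axes, from 0) against ZT (horizontal axes, hours from lights on), with a point for each liver and a line through the mean of 3 livers for each of the 4 groups, points set slightly apart and the dark phase in grey. Klb lines of both LKO groups lie below those of both WT groups, Nr0b2 points spread widely within a ZT, and the GF WT mean of Fgfr4 is lowest at ZT6, with points at 16.3 to 17.2 CPM, while a single GF WT liver at ZT2 lies lower at 15.8 CPM.

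The second comparison asked what loss of Bmal1 in the liver did to the same genes. Klb was lower in LKO mice with and without microbes, Nr0b2 and both organic anion carriers were lower in SPF LKO mice, Fgfr4 was higher in SPF LKO mice and Abcb11 was higher in GF LKO mice. In SPF mice 5 of 9 genes were called, 1 higher and 4 lower (23.1% of 13159 genes tested were called, 11.6% higher and 11.5% lower), with a median log2 fold change of -0.07 against -0.01 over all genes. In GF mice 3 of 9 were called, 1 higher and 2 lower (30.8% of 12662, 15.6% higher and 15.2% lower), with a median of -0.15 against 0.01. Without the doubted libraries 4 were called in SPF mice, Abcb11, Klb, Slco1a1 and Fgfr4 (27.9% of all genes), and 3 in GF mice, Abcb11, Klb and Slco1a1 (30.1% of all genes). At single ZT, from ZT2 to ZT22, 6.89%, 7.26%, 11.9%, 0.00%, 0.0150% and 3.31% of genes were called in SPF mice, with 5 member calls in all. In GF mice the shares were 4.21%, 11.7%, 13.1%, 6.10%, 8.43% and 4.44%, with 6 member calls. The 4 comparisons of groups share libraries, so their values stand side by side and are not independent.

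Klb ranged from 20.4 through 31.4 to 44.3 CPM in SPF WT and from 16.8 through 23.7 to 34.4 CPM in SPF LKO livers. In GF mice it ran from 25.96 through 36.02 to 50.1 CPM in WT and from 17.6 through 25.04 to 30.4 CPM in LKO livers. It fell by 0.45 log2 units (SE 0.084, adjusted p = 0.000108) in SPF and by 0.53 (SE 0.074, adjusted p = 3.02e-07) in GF mice, which is 1.37-fold and 1.44-fold lower, and kept its call under every alternative tried. The mean was lower in LKO mice at 6 of 6 ZT in both microbial states, without overlap at 2 ZT in SPF and at 5 in GF mice. How many of all genes reach such counts between genotypes was not computed. The difference passed the test at ZT2 and ZT6. At ZT6 SPF WT livers had 40.5, 44.3 and 37.7 CPM and SPF LKO livers 23.8, 24.2 and 23.05 CPM (log2 fold change -0.79, SE 0.15, adjusted p = 0.00679, 7.26% of genes called). GF WT livers had 45.1, 50.1 and 33.01 CPM and GF LKO livers 30.4, 23.8 and 22.1 CPM (log2 fold change -0.75, SE 0.15, adjusted p = 0.00684, 11.7% called). At ZT2 the log2 fold changes were -0.71 (SE 0.14, adjusted p = 0.00839, 6.89% called) and -0.68 (SE 0.14, adjusted p = 0.0140, 4.21% called).

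Nr0b2 ranged from 8.07 through 29.5 to 61.4 CPM in SPF WT and from 6.84 through 18.7 to 44.3 CPM in SPF LKO livers, a fall of 0.61 log2 units (SE 0.22, adjusted p = 0.0412). The groups overlapped widely, and the call was lost under 6 of 12 alternatives, with log2 fold changes from -0.84 to -0.47 and adjusted p up to 0.249 over the alternatives, among them without the doubted libraries (-0.60, adjusted p = 0.0548). At ZT22 the groups did not overlap, with 60.3, 35.9 and 38.1 CPM in SPF WT and 20.7, 12.4 and 13.2 CPM in SPF LKO livers (log2 fold change -1.56, SE 0.25, adjusted p = 0.00226, 3.31% called). In GF mice it ran from 4.57 through 25.4 to 66.8 CPM in WT and from 2.34 through 19.1 to 29.2 CPM in LKO livers, a log2 fold change of -0.66 (SE 0.29, adjusted p = 0.0771) that did not pass the test with ZT pooled but did with ZT as a covariate (-0.69, adjusted p = 0.00195). In the GF library doubted at ZT6, Nr0b2 was the lowest of its 3 livers (17.9 beside 28.05 and 43.6 CPM), and without it the log2 fold change at ZT6 was -1.08 (adjusted p = 0.0303).

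Fgfr4 ranged from 15.5 through 24.1 to 30.4 CPM in SPF WT livers and was higher in SPF LKO livers by 0.23 log2 units (SE 0.069, adjusted p = 0.0112), with a higher mean at 6 of 6 ZT. The call was lost without replicate 1 or replicate 2 of every ZT (adjusted p = 0.0832 and 0.0592). In GF mice, where it ran from 15.8 through 21.8 to 38.5 CPM in WT livers, the pooled log2 fold change was 0.11 (SE 0.10, adjusted p = 0.427). It passed the test at ZT10 in both microbial states, with 15.5, 22.04 and 22.02 CPM in SPF WT and 29.7, 27.5 and 26.2 CPM in SPF LKO livers (log2 fold change 0.48, SE 0.14, adjusted p = 0.0344, 11.9% called). GF WT livers had 19.2, 17.96 and 19.3 CPM at ZT10 and GF LKO livers 29.9, 23.8 and 26.6 CPM (log2 fold change 0.52, SE 0.14, adjusted p = 0.0213, 13.1% called). At ZT6 it passed the test in GF mice, with 17.1, 17.2 and 16.3 CPM in WT and 27.2, 20.4 and 19.9 CPM in LKO livers (log2 fold change 0.41, SE 0.13, adjusted p = 0.0498), a call that was lost without the doubted library (0.39, adjusted p = 0.115). At ZT22 the order was turned in GF mice, with 26.9, 28.5 and 23.99 CPM in WT and 23.4, 21.8 and 16.1 CPM in LKO livers. These did not overlap, but the difference did not pass the test, which called 0 members there. Nr1h4 passed neither pooled test, with log2 fold changes of -0.02 (SE 0.075) in SPF and -0.15 (SE 0.089) in GF mice.

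Among the carriers, Slco1a1 was lower in LKO mice in both microbial states, by 0.28 log2 units (SE 0.080, adjusted p = 0.00905) in SPF and by 0.26 (SE 0.068, adjusted p = 0.00293) in GF mice, with a lower mean at 6 of 6 ZT in each. The former call was lost without replicate 1 or replicate 3 of every ZT and the latter without replicate 1 (adjusted p = 0.114, 0.0956 and 0.0544). Slco1b2 fell by 0.20 (SE 0.073, adjusted p = 0.0412) in SPF mice, a call that was lost under 6 of 12 alternatives, among them without the doubted libraries (-0.19, adjusted p = 0.0608), and had -0.16 (SE 0.079, adjusted p = 0.125) in GF mice. Slc10a1, which was higher without microbes, differed little by genotype, with -0.06 (SE 0.049, adjusted p = 0.436) in SPF and -0.10 (SE 0.053, adjusted p = 0.168) in GF mice.

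Abcb11, the bile salt pump, moved the other way. In GF mice it ranged from 337 through 699 to 1048 CPM in WT and from 683 through 814 to 1329 CPM in LKO livers, a rise of 0.42 log2 units (SE 0.12, 1.34-fold, adjusted p = 0.00628) whose call was lost without replicate 3 of every ZT (0.36, adjusted p = 0.0627). In SPF mice it ran from 406 through 641 to 989.5 CPM in WT and from 365 through 839 to 1103 CPM in LKO livers (log2 fold change 0.28, SE 0.12, adjusted p = 0.0792). The lowest SPF LKO value, 365 CPM, was that of the library labelled SPF LKO ZT14 replicate 2, beside 850.2 and 698 CPM in the other two. Without the doubted libraries the SPF difference was 0.35 (adjusted p = 0.0179) and the GF difference 0.38 (adjusted p = 0.00920). At ZT10 SPF WT livers had 459, 434 and 533 CPM and SPF LKO livers 795, 644 and 744 CPM (log2 fold change 0.61, SE 0.12, adjusted p = 0.00361). GF WT livers had 537, 517 and 443 CPM and GF LKO livers 838, 745 and 745 CPM (log2 fold change 0.64, SE 0.12, adjusted p = 0.00191). At ZT14 no member passed the test in SPF mice, where 0 of 13317 genes were called (1 member had an unadjusted p under 0.05). With the library labelled SPF LKO ZT14 replicate 2 left out, Abcb11 rose there by 0.68 (SE 0.17, adjusted p = 0.0428), whereas with SPF WT ZT14 replicate 3 left out in its place the value was 0.63 (SE 0.26, adjusted p = 0.531). In GF mice at ZT14, where neither gene passed the test with all libraries, Abcb11 (0.70, adjusted p = 0.0137) and Fgfr4 (0.48, adjusted p = 0.0412) passed it with the former library out of the shared fit, and did not with the latter out (adjusted p = 0.0961 and 0.0800). Abcb4 showed no pooled difference by genotype that passed the test (-0.07, SE 0.068, and -0.02, SE 0.077).

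**Figure D3:**
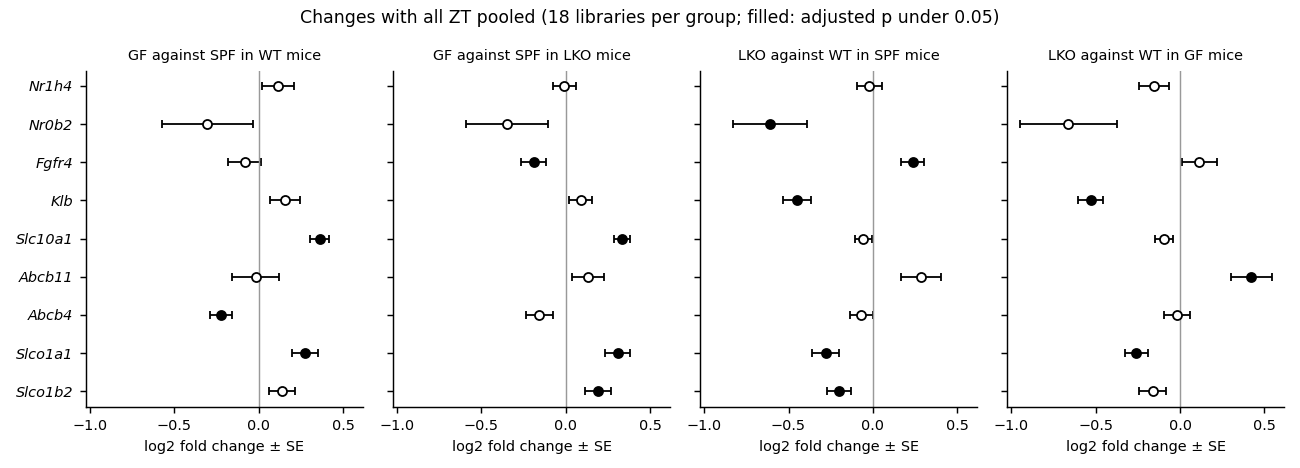
Log2 fold change with its SE (horizontal axes, bars) of the 9 genes tested (rows) in the 4 comparisons of groups with all ZT pooled, 18 libraries a group, filled where the adjusted p was under 0.05. Slc10a1 and Slco1a1 lie above 0 in both comparisons of GF with SPF mice, and Klb lies at -0.45 and -0.53 in the comparisons of LKO with WT mice, with Nr0b2 further from 0 and with wider bars.

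The effect of genotype was next compared between GF and SPF mice in one fit of all 72 libraries. For 0 of the 9 genes did it differ by edgeR's test, with 0 at an unadjusted p under 0.05 and 0 called by DESeq2 (0.438% of 13484 genes were called). The differences ran from -0.14 (SE 0.12) for Nr1h4 to 0.13 (SE 0.17) for Abcb11, and for Klb the difference was -0.08 (SE 0.11). Where a gene was called in 1 microbial state only, as Abcb11, Fgfr4, Nr0b2 and Slco1b2 were, a difference between the states was therefore not shown.

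The third comparison asked which of these genes followed a 24 h rhythm, tested by a cosine and a sine term in each group. With all libraries kept, Abcb11 was rhythmic in all 4 groups and peaked around lights on. By the same test 2 of the 10 genes tested were called in SPF WT mice (15% of 13907 genes), 3 of 9 in SPF LKO (21.2% of 14028), 4 of 9 in GF WT (26.7% of 13203) and 6 of 9 in GF LKO mice (35% of 13494). Without the doubted libraries the counts were 4 in SPF WT mice, with Nr0b2 and Nr1h4 added (17.5% of all genes), 2 in SPF LKO, with Abcb11 lost (18.1%), and 5 in GF WT, with Slco1b2 added (31.5%). Nr1h4, Klb and Slco1a1 were called rhythmic in no group, and Slc51b, tested in SPF WT mice alone, was not called.

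The fitted amplitude of Abcb11 was 0.45 log2 units (SE 0.087) in SPF WT, 0.31 (SE 0.093) in SPF LKO, 0.51 (SE 0.10) in GF WT and 0.32 (SE 0.044) in GF LKO mice. Its fitted peaks were at ZT 0.848, 1.69, 24.0 and 1.81 in the same order, each with an SE of 0.519 to 1.13 h. In GF WT livers it fell from 867 ± 53.98 CPM at ZT2 (SD, n = 3) to 434 ± 39.2 CPM at ZT14 (SD, n = 3), and in GF LKO livers from 1127 ± 176 to 705 ± 19.8 CPM (SD, n = 3 each). The difference in rhythm between genotypes did not pass the test in SPF (adjusted p = 0.684) or GF mice (adjusted p = 0.282). One low value at ZT6 in GF WT mice, 337 CPM beside 884 and 757 CPM, was that of the doubted library. In SPF LKO mice the lowest value at ZT14, 365 CPM beside 850.2 and 698 CPM, was also that of a doubted library. Without the doubted libraries the rhythm call of Abcb11 in SPF LKO mice was lost.

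Nr0b2 had the largest amplitudes of the set, 1.02 log2 units (SE 0.24, adjusted p = 0.00506) in GF WT and 0.99 (SE 0.26, adjusted p = 0.0286) in GF LKO mice. It was lowest at ZT14 in both, with 10.6, 6.62 and 4.57 CPM in GF WT and 6.54, 3.82 and 2.34 CPM in GF LKO livers. In SPF WT mice its amplitude was 0.68 (SE 0.22, adjusted p = 0.0542), and in SPF LKO mice 0.42 (SE 0.21, adjusted p = 0.223). At ZT14 in SPF LKO mice the library labelled replicate 2 had 27.3 CPM beside 6.84 and 9.28 CPM, and in SPF WT mice the library labelled replicate 3 had 39.1 CPM beside 8.07 and 20.6 CPM. Slc10a1 was rhythmic in GF mice only by these tests, with amplitudes of 0.15 (SE 0.034) in WT and 0.18 (SE 0.033) in LKO mice and peaks at ZT 12.1 and 12.8, and its rhythm did not differ between GF and SPF mice by the test of the difference (adjusted p = 0.883 in WT and 0.225 in LKO mice).

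Abcb4 was rhythmic in SPF WT, SPF LKO and GF LKO mice, with fitted peaks at ZT 3.21 (SE 0.967 h), 5.82 (SE 0.789 h) and 9.17 (SE 0.789 h). In GF LKO livers it rose to 364, 260.1 and 307 CPM at ZT10 and fell to 177, 170.0 and 185 CPM at ZT18. At ZT10 GF LKO livers had more of it than GF WT livers (log2 fold change 0.43, SE 0.14, adjusted p = 0.0494), and its rhythm did not pass the test of the difference between these groups (adjusted p = 0.0757). Slco1b2 was rhythmic in both LKO groups, with peaks at ZT 8.24 (SE 0.673 h) and 8.18 (SE 1.16 h) and amplitudes of 0.24 (SE 0.042) and 0.23 (SE 0.070).

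Fgfr4 was the only member whose rhythm differed between groups. It was rhythmic in GF WT mice, with an amplitude of 0.34 (SE 0.092) and a peak at ZT 20.8 (SE 1.04 h), and in GF LKO mice, with 0.26 (SE 0.067) and a peak at ZT 13.5 (SE 0.990 h). The test of the difference gave an adjusted p of 0.00889 (5.81% of 13806 genes were called). Mean levels in GF WT livers were lowest at ZT6, 16.9 ± 0.504 CPM (SD, n = 3), and highest at ZT2, 27.5 ± 11.3 CPM (SD, n = 3). In GF LKO livers they were highest at ZT14, 29.6 ± 3.01 CPM (SD, n = 3), and lowest at ZT22, 20.4 ± 3.83 CPM (SD, n = 3). With ZT as 6 levels in place of the cosine the adjusted p was 0.0757, and it was 0.0634 to 0.104 with 1 replicate of every ZT left out. No member differed in rhythm between GF and SPF mice in WT (0.0355% of genes called, 2 members with an unadjusted p under 0.05) or in LKO mice (4.45%, 3 members), or between genotypes in SPF mice (1.02%, 2 members). DESeq2 called 1 of these, Slco1a1 between GF and SPF LKO mice.

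**Figure D4:**
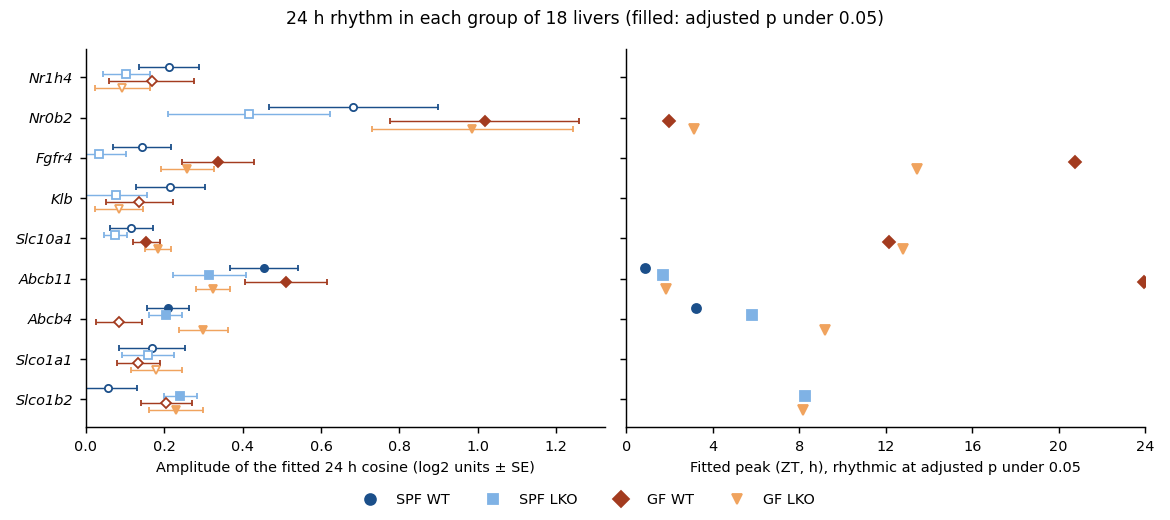
Amplitude of the fitted 24 h cosine with its SE (left, log2 units) and fitted peak (right, ZT in hours, shown where the adjusted p was under 0.05) of the 9 genes (rows) in the 4 groups of 18 livers, filled where rhythmic. Abcb11 peaks, fitted with all libraries kept, lie within 2 h of lights on in every group, and the 2 peaks of Fgfr4 lie at ZT 20.8 and 13.5.

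Other genes of the pathway were taken from written lists. Their counts are to be read against the shares of all genes called, which were 31.8% and 36.4% for GF against SPF in WT and LKO mice and 23.1% and 30.8% for LKO against WT in SPF and GF mice. In the fits without the doubted libraries these shares were 32%, 36.7%, 27.9% and 30.1%. Of 11 tested genes of bile acid synthesis and conjugation, 7 rose and 1 fell in GF WT mice and 6 rose and 0 fell in GF LKO mice, with medians of 0.27 and 0.16 log2 units (14.2% of all genes rose and 17.7% fell in WT mice, and 18.1% and 18.4% in LKO mice). Without the doubted libraries the counts were also 7 and 1 and 6 and 0. Cyp7a1, the rate-limiting enzyme, which SHP and FGF15 signaling repress, rose by 1.14 (SE 0.38, adjusted p = 0.0193) in WT and 0.85 (SE 0.28, adjusted p = 0.0179) in LKO mice. Cyp8b1, which makes cholic acid, rose by 0.71 (SE 0.23, adjusted p = 0.0181) in WT mice, and Cyp2c70, which makes muricholic acids, by 0.77 (SE 0.13, adjusted p = 1.48e-05) in LKO mice, while Cyp39a1 fell by 0.96 (SE 0.25, adjusted p = 0.00348) in WT mice. By genotype 3 rose and 1 fell in SPF mice and 2 rose and 2 fell in GF mice (3 and 3, and 2 and 3, without the doubted libraries). Cyp7b1, of the alternative pathway, rose by 1.03 (SE 0.16) and 1.33 (SE 0.11), and Cyp2c70 by 0.72 (SE 0.15) and 0.81 (SE 0.11). Akr1d1 fell by 0.74 (SE 0.096) and Slc27a5 by 0.22 (SE 0.046) in GF LKO mice, and Cyp39a1 by 0.88 (SE 0.23) in SPF LKO mice.

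Of 11 other transporters of bile acids and sterols, 0 rose and 1 fell in GF WT mice and 0 rose and 3 fell in GF LKO mice (1 and 1, and 0 and 3, without the doubted libraries). Of all genes, 14.2% rose and 17.7% fell in GF WT mice and 18.1% rose and 18.4% fell in GF LKO mice. The share called, both directions together, was below that of all genes in both genotypes, but the share that fell in LKO mice was not. Abcc3, a basolateral export pump, fell by 0.32 (SE 0.079, adjusted p = 0.00228) and by 0.45 (SE 0.094, adjusted p = 0.000294) in LKO mice. Slc10a2 had a log2 fold change of -0.83 (SE 0.32, adjusted p = 0.0408) in LKO mice, which went to -0.13 (SE 0.21, adjusted p = 0.663) without the doubted libraries. By genotype, 2 rose and 2 fell in SPF mice and 1 rose and 3 fell in GF mice (2 and 3, and 1 and 3, without the doubted libraries). Slco1a4, a relative of Slco1a1 on the same chromosome, rose by 0.84 (SE 0.12, adjusted p = 1.56e-06) and 0.85 (SE 0.13, adjusted p = 1.31e-06), whereas Slco1a1 was lower. Slc10a2, the ileal and cholangiocyte sodium-dependent carrier, ranged from 29.6 through 55.2 to 116 CPM in SPF WT and from 3.44 through 9.45 to 77.7 CPM in SPF LKO livers, and from 26.8 through 48.2 to 66.5 CPM in GF WT and from 3.77 through 9.07 to 20.01 CPM in GF LKO livers. The 2 highest SPF LKO values, 77.7 and 60.6 CPM, were those of the doubted libraries at ZT14 and ZT18, and the other 16 SPF LKO livers had at most 17.7 CPM. Its log2 fold changes by genotype were -1.81 (SE 0.31, adjusted p = 2.62e-05) and -2.35 (SE 0.19, adjusted p = 4.50e-13), and -2.54 (SE 0.20, adjusted p = 1.03e-12) and -2.33 (SE 0.19, adjusted p = 1.33e-12) without the doubted libraries. Abcc2, a canalicular pump, fell by 0.21 (SE 0.067, adjusted p = 0.0217) and by 0.31 (SE 0.066, adjusted p = 0.000312), and Abcg5, of the sterol exporter, rose by 0.42 (SE 0.15, adjusted p = 0.0404) in SPF mice.

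Of 12 other regulators tested, 2 rose and 2 fell in GF WT mice and 1 rose and 3 fell in GF LKO mice (1 and 2, and 1 and 3, without the doubted libraries). With all libraries, the share called in both directions together was close to that of all genes in both genotypes. Fgfr3, a receptor related to FGFR4, fell by 0.48 (SE 0.13, adjusted p = 0.00385) and by 0.73 (SE 0.11, adjusted p = 2.30e-06), and S1pr2, a receptor for conjugated bile acids, by 0.39 (SE 0.12) and by 0.38 (SE 0.12). Nr1h3, the oxysterol receptor LXRα, rose by 0.15 (SE 0.057) and 0.26 (SE 0.066), and Fgfr1 rose by 0.53 (SE 0.20) in WT mice. The call of Nr1h3 in WT mice was lost without the doubted libraries (adjusted p = 0.0544). By genotype 1 rose and 3 fell in each microbial state (1 and 5 without the doubted libraries), with S1pr2 higher by 0.36 (SE 0.12) and 0.36 (SE 0.13). The xenobiotic receptors Nr1i3 (CAR) and Nr1i2 (PXR) were lower, Nr1i3 by 0.66 (SE 0.14) and 0.60 (SE 0.094), and Nr1i2 by 0.35 (SE 0.087) and 0.43 (SE 0.064). Fgf15 had 0 counts in all 72 libraries. For a library taken alone this allows an expected count of up to 3, a looser limit than the 72 libraries set together. Gpbar1, the membrane bile acid receptor, had at most 2 counts.

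Marker lists for other cells were read beside these results. In LKO mice 1 of 5 hepatocyte markers fell with microbes (2 of 5 without the doubted libraries, with Hnf4a added) and 2 of 5 fell without microbes, with Alb, whose promoter drives the Cre, falling by 0.98 (SE 0.15) and by 1.70 (SE 0.066), and the summed list ranged from 40531 to 123256 CPM in SPF LKO and from 47898 to 69586 CPM in GF LKO livers. Kupffer cell markers were lower in SPF LKO mice for 4 of 5, with 172 to 428 CPM in SPF WT and 166 to 269.8 CPM in SPF LKO livers in sum, and for 1 of 5 in GF LKO mice. Cholangiocyte markers rose for 1 of 5 tested in SPF LKO (2 without the doubted libraries, with Spp1 added) and 2 of 5 in GF LKO mice, with sums of 33.4 to 99.3 and 31.4 to 137 CPM in SPF WT and SPF LKO livers and of 27.6 to 57.96 and 45.3 to 163 CPM in GF WT and GF LKO livers, Krt19 at no more than 3.46 CPM and Cftr at no more than 0.762 CPM. The part of these lists in the changes of Klb, Nr0b2, Fgfr4, Abcb11 and the carriers was not tested. Endothelial markers were called for at most 2 of 4 in any comparison and stellate cell markers for at most 2 of 4. Of the intestinal markers Cdx2 reached no more than 2 counts and Lgals4 was lower in GF WT and both LKO groups. Of the pancreatic markers Cpa1, Prss2 and Pnlip had at most 2 counts and Cela1 was higher in all 4 comparisons.

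For each member the 2 genes with the most alike course over the 24 means of log2 CPM (4 groups by 6 ZT) were taken among 10710 genes, as a description with no test. Abcb11 was most like Camk1d (r = 0.94) and Rab32 (r = 0.94), Slc10a1 like Rab7 (r = 0.91) and Haus7 (r = 0.91), and Slco1a1 like Tmem128 (r = 0.91) and Hao1 (r = 0.90). Slco1b2 was most like Akip1 (r = 0.88) and Vta1 (r = 0.86), Klb like Grpel2 (r = 0.87) and Kcmf1 (r = 0.87), and Abcb4 like Intu (r = 0.85) and Cdc42bpa (r = 0.85). The remaining members had lower likeness, from 0.82 for Nr0b2 with Zfp943 to 0.69 for Slc51b with Ralgps1. The points share libraries and scaling, and no member was among the most alike genes of another.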

How the data were processed

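Liver RNA of 72 male mice was sequenced from stranded mRNA libraries with single-end reads. The authors deposited a table of raw counts, one row a gene. They had aligned the reads with STAR 2.6.1b to mm10 (GRCm38) and counted them over exons with featureCounts 2.0.0, per the file headers with no strand option and with multimapping and multi-overlapping reads left out. Groups, ZT and replicate numbers come from the labels, and all columns of the table were used. Libraries held 17369927 to 22076113 counts.

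The members and gene lists were chosen with earlier results of these data known. All 10 members are described, and of each other list up to 2 genes per direction and comparison with the largest change among those called whose mean log2 CPM was not below 0. Other genes, such as those of the marker and clock lists, and Slc51a, Fgf15 and Gpbar1, were named after their values were seen.

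The quasi-likelihood test of edgeR 4.0.16 (in R 4.3.3) was applied after filterByExpr and TMM, and p-values were adjusted by Benjamini-Hochberg with calls at 0.05. Fits used 36 libraries for a pair of groups pooled over ZT, 12 for a single ZT, all 72 for the interaction, and rhythms with 24 h cosine and sine terms for 18 libraries a group. SE are the log2 fold change over the square root of the F statistic. In place of the study's eJTK test of rhythms the cosine was used. DESeq2 1.42.0, scaling, filter, ZT as a covariate or as levels, a replicate block and libraries left out were the alternatives, and the lists without the doubted libraries were added after seeing the data. The tests were tested on simulated data first. Tables and plots were made in Python 3.11.15 (pandas 2.3.3, matplotlib 3.10.9). Exon overlaps and positions came from the GENCODE vM21 annotation and promoters from RefSeq (GRCm38.p6).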

Additional observations from a re-analysis of the deposited data

Results flagged for a closer look

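The 24 h rhythm of Fgfr4 differed between LKO and WT mice without microbes (adjusted p = 0.00889 by edgeR's quasi-likelihood test of the cosine and sine terms over 36 libraries, with fitted peaks at ZT 13.5 in GF LKO and ZT 20.8 in GF WT livers), which marked it for a closer look as a contrast that differed between groups. Of the 3 GF WT livers at ZT2, where the mean was highest, 1 had 15.8 CPM and the other two 38.5 and 28.2 CPM. By the same edgeR test, the call was lost with ZT as 6 levels (adjusted p = 0.0757). It was also lost without replicate 1, 2 or 3 of every ZT (adjusted p = 0.0891, 0.104 and 0.0634).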

How the results depend on the processing

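Livers with the same replicate number correlated in their deviations from the group means by -0.36 to 0.46, with medians of -0.047 to 0.008 and 3 to 6 of 18 pairs above 0.1. Livers with different numbers were not compared in this way, so whether replicate numbers pair the samples was not settled. With the replicate block in place, members called for LKO against WT numbered 5 in GF mice, and calls summed over ZT numbered 1 in each comparison of GF with SPF mice. With no filter on low counts 2 members were called for GF against SPF in LKO mice and 3 for LKO against WT in SPF mice, and calls summed over ZT rose to 8 and 8 for GF against SPF in WT and LKO mice and to 8 and 14 for LKO against WT in SPF and GF mice. DESeq2 made 9 and 7 such calls for GF against SPF and called 1 rhythm difference between GF and SPF LKO mice, and RLE factors left 1 call over ZT there. With ZT as a covariate 6 members were called for LKO against WT in GF mice. With ZT as 6 levels 1 member was rhythmic in SPF WT, 0 in SPF LKO and 2 in GF WT mice, and 0 differed in rhythm between genotypes in GF mice, whereas without the doubted libraries 4 were rhythmic in SPF WT mice. With replicates or single libraries left out, members called numbered 1 to 3 and 2 to 3 for GF against SPF in WT and LKO mice and 1 to 6 and 2 to 3 for LKO against WT in SPF and GF mice. Calls over ZT numbered 0 to 4, 0 to 2, 4 to 6 and 3 to 8 in the same order. Rhythmic members numbered 1 to 4 in SPF WT, 0 to 2 in SPF LKO, 1 to 5 in GF WT and 3 to 4 in GF LKO mice, and members with a different rhythm in GF mice 0 to 1. Fewer libraries were tested in these, and the other causes were not tested. Shares of all genes called under these other settings are not given, beyond those without the doubted libraries. Such counts therefore do not set the members apart from all genes. Reversals of sign met only members that had not been called. For GF against SPF in WT mice Abcb11 turned to 0.018 with no filter and to 0.019 without the doubted libraries, and ran from -0.14 to 0.11 with libraries left out. For GF against SPF in LKO mice Nr1h4 turned to 0.019 without the doubted libraries, and ran from -0.067 to 0.042 with libraries left out. For LKO against WT in SPF mice Nr1h4 ran from -0.061 to 0.046, and for LKO against WT in GF mice Abcb4 ran from -0.043 to 0.0016, which was also its value without the doubted library. The limits are 3 livers per group at each ZT, and the low counts of Slc51b.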

Other observations

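Over the 24 means of 4 groups by 6 ZT, members also varied with each other. The neighbours Slco1a1 and Slco1b2 had a Pearson r of 0.71, and Fgfr4 had -0.71 with Slco1a1 and -0.53 with Slco1b2. Nr1h4 had -0.54 with Abcb11, and Nr0b2 had -0.49 with Slc10a1. These are descriptions of means that share libraries and scaling, without a test.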
